A study of Mus musculus with 6 samples.

Results

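The genes described here are Ecm1, Tgm1, Tgm2, Timp1, Igfbp4 and Fn1, 6 of the 38483 genes of the deposited table and 26 of its 93480 transcripts. They encode proteins that are secreted into, cross-link or protect the extracellular matrix, and they were taken by gene name because earlier results of these data showed them shifted between genotypes within replicate numbers. The members were chosen by their measured knockout and wild-type levels in the same libraries, so the genotype differences of the 6 genes are given as a description, with no test. The data are stranded mRNA-seq counts from CD4+CD62L+ T cells of mouse spleen (B10.RIII background), taken from IL-17A+/+ wild-type and IL-17A-/- knockout animals. The cells of both genotypes were cultured for 3 days under Th17 polarization, that is toward helper T cells that make IL-17A, with IL-6 and IL-23 (both 10 ng/ml), TGF-β (1 ng/ml) and blocking antibodies to IFN-γ and to IL-4 (both 10 µg/ml). All 6 cultures thus received TGF-β, and no culture without it was included. Each genotype had 3 libraries, numbered 1 to 3 and called biological replicates in the series' design; whether each came from a separate animal, and what a number marks, is not given in the sources used here, so the p-values below measure the spread between these libraries, which may be technical. By its title, the study concerns how IL-17A limits the pathogenicity of Th17 cells through IL-24.

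The extracellular matrix is the protein network between cells. Transglutaminases are calcium-dependent enzymes that join proteins by bonds between glutamine and lysine side chains. Tgm2 encodes tissue transglutaminase, found inside and outside many cell types and known to bind fibronectin; Tgm1 encodes the membrane-bound transglutaminase of keratinocytes, which builds the cornified envelope of the skin. Ecm1 encodes extracellular matrix protein 1, a secreted glycoprotein known to bind matrix metalloproteinase 9 and, in helper T cells, to act on IL-2 receptor signalling and on exit from lymph nodes. Fn1 encodes fibronectin, which cells bind through integrins. Timp1 encodes an inhibitor of matrix metalloproteinases, and Igfbp4 a secreted protein that binds insulin-like growth factors.

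The start regions of the genes that were lower in knockout are shown first. These genes moved together over the libraries, which is partly built in by their choice, and Tgm1 was read from 2 starts. Of the 6 genes, 4 matched a start window in RefSeq on GRCm38.p6; Tgm2 and Fn1 did not. Each line gives the 250 bases before an annotated start, 5′ to 3′ on the gene's strand, with matches to 6 motifs in capitals. The motifs were AP-1 (TGANTCA), STAT (TTCNNNGAA), SMAD (CAGAC), ROR (AGGTCA), SP1 (GGGCGG) and a TATA box (TATAAA), searched on both strands; no 2 of them share a match in these windows. In GENCODE M21 the 2 bases of the Tgm1 window next to the start lie in an exon of Tgm1-203, which begins slightly further upstream there; the other windows printed overlap no exon. A second Tgm1 window, before the downstream start at 55713088, shares 52 bases with annotated exons and is not printed.
Ecm1, chr3:95739570-95739819, minus strand: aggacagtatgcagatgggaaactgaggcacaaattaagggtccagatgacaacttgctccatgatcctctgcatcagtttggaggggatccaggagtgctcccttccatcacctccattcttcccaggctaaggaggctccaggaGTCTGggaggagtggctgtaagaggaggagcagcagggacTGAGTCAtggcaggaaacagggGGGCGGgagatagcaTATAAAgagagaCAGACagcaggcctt
Tgm1 upstream start, chr14:55713493-55713742, minus strand: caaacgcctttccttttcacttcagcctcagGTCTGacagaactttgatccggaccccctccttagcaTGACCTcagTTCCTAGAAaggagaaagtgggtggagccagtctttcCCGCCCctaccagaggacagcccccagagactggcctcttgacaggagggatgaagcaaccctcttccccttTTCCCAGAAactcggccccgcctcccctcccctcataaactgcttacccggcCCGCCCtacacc
Timp1, chrX:20869916-20870165, plus strand: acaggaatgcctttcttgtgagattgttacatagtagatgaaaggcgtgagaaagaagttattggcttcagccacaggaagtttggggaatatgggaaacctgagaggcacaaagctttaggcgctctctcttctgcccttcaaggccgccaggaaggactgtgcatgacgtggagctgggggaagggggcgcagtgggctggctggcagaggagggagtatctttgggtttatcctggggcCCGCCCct
Igfbp4, chr11:99040994-99041243, plus strand: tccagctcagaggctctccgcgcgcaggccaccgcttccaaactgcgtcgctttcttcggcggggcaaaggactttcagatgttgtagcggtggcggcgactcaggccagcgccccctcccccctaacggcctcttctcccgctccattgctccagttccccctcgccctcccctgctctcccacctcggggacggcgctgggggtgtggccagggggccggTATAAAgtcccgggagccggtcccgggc

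The 4 windows had no motif in common among the 6 searched. The Ecm1 window held an AP-1 match 64 to 58 bases before the start, a TATA box at 27 to 22 bases, an SP1 match and 2 SMAD matches. The Tgm1 upstream window held 2 STAT matches, at 173 to 165 and at 64 to 56 bases before the start, along with 1 SMAD, 1 ROR and 2 SP1 matches. The Timp1 window held only an SP1 match and the Igfbp4 window only a TATA box at 28 to 23 bases. The Timp1 window ends before the start of Timp1-002 at 20870166, a transcript with 1.72% of the wild-type Timp1 counts. Timp1-001, with 98.3%, starts further downstream at 20870221, and the bases between these starts were not searched. Over 32817 RefSeq windows of the same length, 6.75% held the AP-1 letters, 7.01% the STAT letters, 42.2% the SMAD, 14.0% the ROR, 32.7% the SP1 and 12.4% the TATA letters. A match is a string of letters, not a bound site, and a missing match says only that these letters are not in the window.

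Levels are given as CPM, estimated counts per 1000000 of the TMM-scaled library total, in the order of libraries 1, 2 and 3. Between 14824 and 15379 genes per library had at least 10 counts, and totals ran from 47335736 to 49743762 estimated counts. The deleted gene Il17a was at 160.6, 211.1 and 107.8 CPM in wild-type and at 1.11, 0 and 0.0202 CPM in knockout libraries, and the absence of counts in knockout 2 (0) allows up to 3 counts, or 0.0631 CPM of the unscaled total; each library thus matched its label. T cell markers were abundant in all 6, with a sum over 8 genes of 2899 to 4017 CPM in wild-type and 3098 to 3798 CPM in knockout libraries. The number 1 libraries had the most Cd8a, which encodes a chain of CD8, with 257 (wild-type) and 425 (knockout) CPM; the remaining 4 libraries had 33.7 to 66.1 CPM. Knockouts 1 and 2 also carried Y-linked Ddx3y (44.5 and 38.0 CPM) and hardly any Xist, the transcript of the inactive X (2.58 and 0 CPM), whereas the wild-type libraries and knockout 3 had Xist at 567 to 664 CPM. Genotype and sex-linked transcripts therefore differed together in numbers 1 and 2 and not in number 3.

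Of the 6 genes, 5 were lower in knockout within every replicate number and Fn1 was higher within every number. This is the pattern for which they were chosen; of all 15121 tested genes, 16.7% were lower and 16.6% higher in knockout within all 3 numbers. The ranges of the genotypes overlapped for each gene, so that 0 of 6 separated wild-type from knockout when numbers were ignored, against 6.14% of all tested genes. Without regard to the numbers, the median log2 change of the 6 genes in edgeR was -0.78, against 0.01 over all tested genes. This distance too is built in by their choice, and nothing is read from it.

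**Figure D1:**
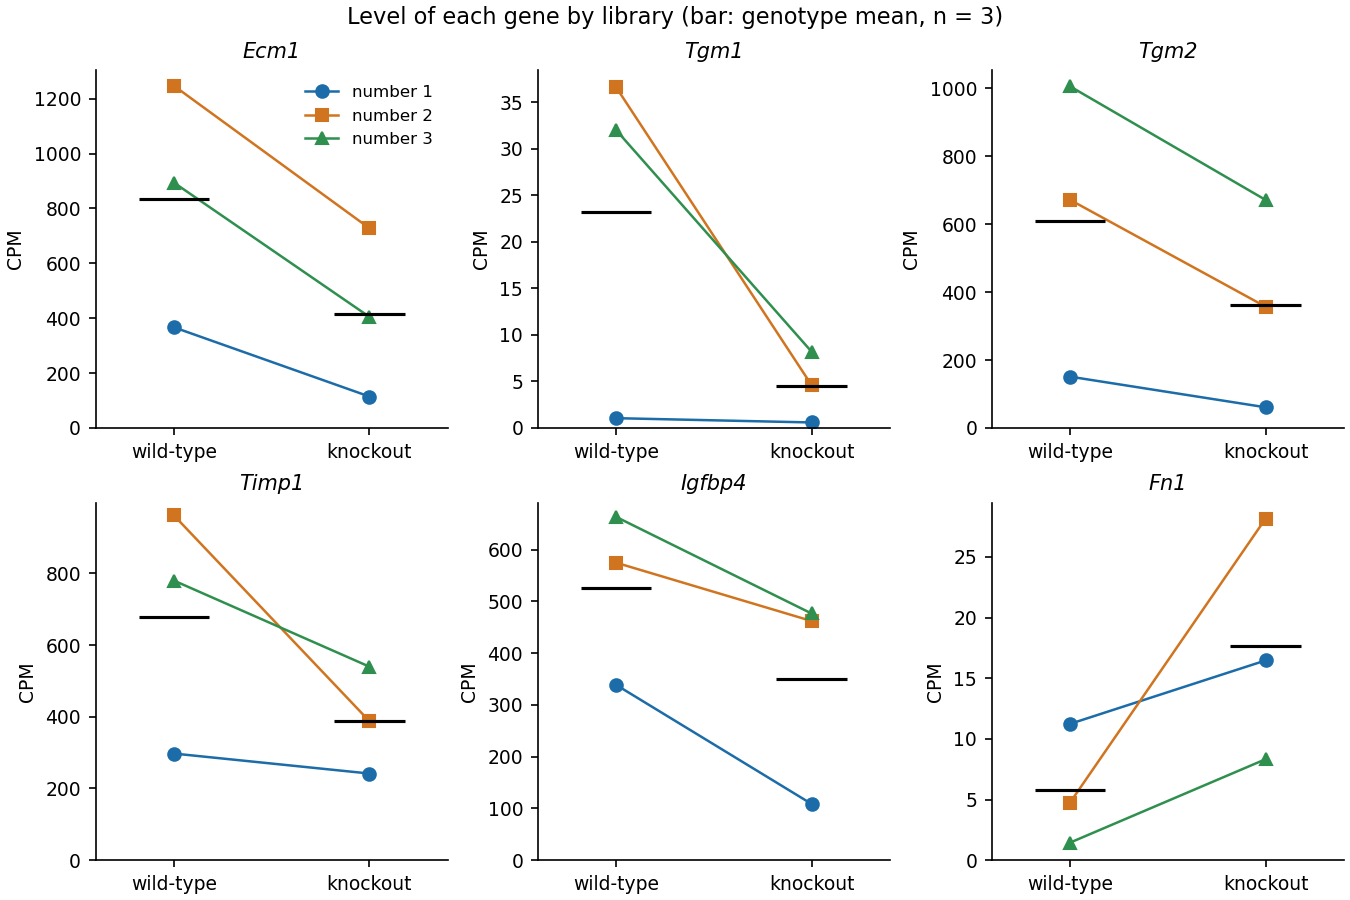
CPM (y axis, from 0) of each gene in wild-type and knockout libraries (x axis); lines join libraries of the same replicate number and black bars are means of 3. Every line falls except those of Fn1, and the number 1 libraries are lowest for each gene but Fn1, with Ecm1 at 367 and 114 CPM there.

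Ecm1 (ENSMUSG00000028108, chr3:95734147-95739569, minus strand, 10 transcripts) had wild-type levels of 367, 1247 and 894 CPM, and knockout levels of 114, 728 and 405 CPM. Wild-type 2 was highest and knockout 1 lowest, and knockout 2 and 3 lay above wild-type 1. The wild-type level was 3.21, 1.71 and 2.21 times the knockout level in numbers 1, 2 and 3. The means were 836 ± 443 and 416 ± 307 CPM (SD, n = 3), and the log2 change was -1.01 (SE 0.69) with the numbers ignored and -1.20 (SE 0.19) with the number as a block in edgeR. The value with the numbers ignored was -0.59 without wild-type 2, -0.57 without knockout 1 and -1.71 without knockout 2.

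Tgm2 (ENSMUSG00000037820, chr2:158116402-158146436, minus strand, 4 transcripts) was at 151, 672 and 1006 CPM in wild-type and at 60.8, 357 and 672 CPM in knockout libraries. Knockout 3 was about level with wild-type 2, and the knockout library was the lower in each number, by 2.48, 1.88 and 1.498 times. The means were 610 ± 431 and 363 ± 306 CPM (SD, n = 3). The log2 change was -0.75 (SE 0.91) in edgeR without and -0.93 (SE 0.16) with the block; the value without the block was -0.19 without wild-type 3, -0.26 without knockout 1, -1.20 without wild-type 1 and -1.57 without knockout 3.

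Tgm1 (ENSMUSG00000022218, chr14:55700009-55713492, minus strand, 3 transcripts) had much lower counts, at 51, 1625 and 1533 in wild-type and 30, 225 and 405 in knockout libraries. In CPM this was 1.05, 36.6 and 32.0 against 0.586, 4.60 and 8.20. The gene was lowest in number 1 in both genotypes, and in numbers 2 and 3 the wild-type libraries were 7.96 and 3.91 times the knockout ones, against 1.79 times in number 1. The means were 23.2 ± 19.4 and 4.46 ± 3.81 CPM (SD, n = 3), with a log2 change of -2.38 (SE 1.27) without and -2.09 (SE 0.39) with the block. On the log2 scale of CPM + 0.5 the ratios were -0.51, -2.86 and -1.90, the widest range among the genes that were lower.

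Timp1 (ENSMUSG00000001131, chrX:20870166-20874735, plus strand, 2 transcripts) was at 297, 962 and 780 CPM in wild-type and 242, 387 and 540 CPM in knockout libraries. Its smallest difference was in number 1, at 1.23 times, and its largest in number 2, at 2.48 times. The means were 680 ± 343 and 390 ± 149 CPM (SD, n = 3), and the log2 change was -0.80 (SE 0.46) without and -0.71 (SE 0.21) with the block. Without wild-type 2 the former was -0.46, and without both number 2 libraries the latter was -0.42. Timp1 is on the X chromosome, and in numbers 1 and 2 genotype and the sex-linked transcripts cannot be told apart. In number 3, where both libraries had Xist, wild-type was 1.45 times knockout.

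Igfbp4 (ENSMUSG00000017493, chr11:99041244-99054392, plus strand, 6 transcripts) was at 339, 575 and 663 CPM in wild-type and 109, 462 and 476 CPM in knockout libraries. The difference was large in number 1, at 3.12 times, and small in numbers 2 and 3, at 1.24 and 1.39 times. Knockout 1 stood far below the other 5 libraries. The means were 526 ± 168 and 349 ± 208 CPM (SD, n = 3), and the log2 change was -0.59 (SE 0.54) without and -0.80 (SE 0.27) with the block; the former was -0.18 without knockout 1 and -0.90 without knockout 3.

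Fn1 (ENSMUSG00000026193, chr1:71585523-71653171, minus strand, 1 transcript of 8312 nt in the table) went the other way. It was at 11.2, 4.73 and 1.44 CPM in wild-type and 16.5, 28.1 and 8.32 CPM in knockout libraries, from 69 to 1376 estimated counts. The knockout library was 1.47, 5.94 and 5.77 times its wild-type partner, yet knockout 3 was below wild-type 1. The means were 5.80 ± 4.98 and 17.6 ± 9.97 CPM (SD, n = 3), with a log2 change of 1.60 (SE 0.75) without and 1.87 (SE 0.45) with the block; the former was 2.52 without wild-type 1. Per length, its mean was the lowest of the 6 genes in wild-type cultures, although in wild-type 1 it was above Tgm1, at 1.24 against 0.341 TPM.

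**Figure D2:**
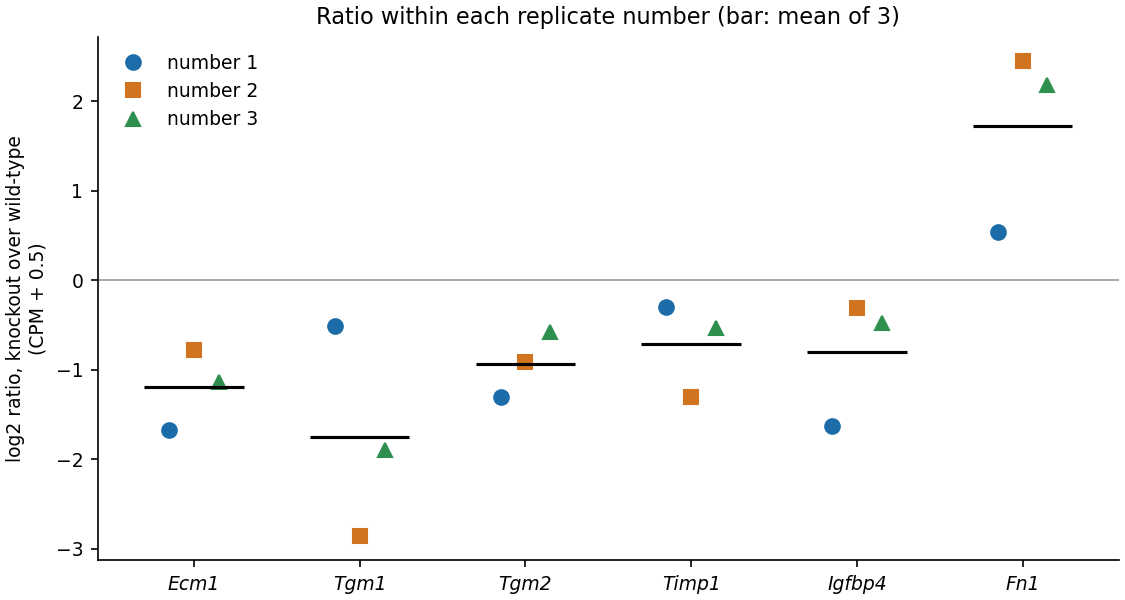
Log2 ratio of knockout to wild-type CPM + 0.5 (y axis) for each gene (x axis) within replicate numbers 1, 2 and 3 (symbols), with the mean of 3 as a bar. Points of 5 genes lie below 0, from -0.30 for Timp1 in number 1 to -2.86 for Tgm1 in number 2, and the 3 points of Fn1 lie above 0.

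By mean level per unit of length, the order of the genes in wild-type cultures was Ecm1, Timp1, Igfbp4, Tgm2, Tgm1 and Fn1. In TPM (estimated counts per transcript length, scaled to a sum of 1000000 per library), the means were 731 ± 373, 728 ± 347, 232 ± 118, 155 ± 118, 7.48 ± 6.18 and 0.625 ± 0.553 (SD, n = 3). The order of Ecm1 and Timp1 differed between wild-type libraries, and that of Tgm1 and Fn1 was reversed in wild-type 1. Igfbp4 and Tgm2 overlapped in range, yet Igfbp4, with all its transcripts summed, was the higher in each library. Igfbp4 was at 139, 193 and 365 TPM in wild-type and 49.4, 182 and 242 TPM in knockout libraries. Tgm2 was at 38.7, 153 and 275 TPM and at 16.5, 93.7 and 174 TPM. The order of these 2 genes depended on short Igfbp4 transcripts. Its leading transcript, Igfbp4-001, was below Tgm2 in wild-type 2, wild-type 3 and knockout 3, at 105, 123 and 86.0 TPM. In wild-type 1, knockout 1 and knockout 2, Igfbp4-001 was above Tgm2, at 66.4, 22.0 and 96.4 TPM. In knockout cultures the TPM means were 441 ± 161 for Timp1, 374 ± 268 for Ecm1, 158 ± 98.7 for Igfbp4, 94.8 ± 78.9 for Tgm2, 2.01 ± 1.13 for Fn1 and 1.501 ± 1.27 for Tgm1. Neighbours in this order overlapped in range, except Tgm2 and Fn1. For scale, Cd3e, an invariant chain of the T cell receptor complex, had a mean of 129 TPM over the 6 libraries.

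Much of the Ecm1 level per length lay in a short transcript. Ecm1-010, a retained-intron model of 518 nt at the end of the gene, held 23.1, 31.3 and 14.4% of the Ecm1 counts in wild-type and 23.8, 25.7 and 16.7% in knockout libraries, and 45.0 ± 14.3% and 43.7 ± 9.16% of its TPM (SD, n = 3). Without it, Ecm1 was at 394 ± 203 TPM in wild-type and 203 ± 127 TPM in knockout, below Timp1 in both. The protein-coding models Ecm1-001 and Ecm1-002, of 1900 and 1894 nt, held 47.3 ± 4.16% and 23.4 ± 1.08% of the wild-type counts and 47.4 ± 1.86% and 23.8 ± 2.02% of the knockout counts. The share of Ecm1-010 was highest in both number 2 libraries and lowest in both number 3 libraries.

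Tgm1 was read from 2 annotated starts. Tgm1-202 and Tgm1-203 begin at 55713492 and Tgm1-201 at 55713088. The upstream start held 81.7, 74.5 and 75.0% of the Tgm1 counts in wild-type libraries and 65.7, 69.9 and 66.6% in knockout libraries. Every knockout library was below every wild-type library, with means of 77.1 ± 3.995% and 67.4 ± 2.19% (SD, n = 3). The two-sided exact permutation test gave p = 0.1, the smallest that 3 against 3 libraries allow, and 0.7 after Benjamini-Hochberg adjustment over the 7 shares compared, so the difference did not pass. The number 1 libraries had few counts, with 95% Wilson intervals of 69.0 to 89.9% in wild-type 1 and 47.7 to 80.1% in knockout 1; these cover counting error only. This share was singled out after its values were seen.

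In the other genes the share of the leading transcript differed between genotypes by less than the spread of the libraries. Timp1-001 held 98.3 ± 0.19% in wild-type and 98.3 ± 0.59% in knockout libraries, and Tgm2-001 held 99.72 ± 0.05% and 99.73 ± 0.06% (SD, n = 3). Igfbp4-001 held 80.0 ± 6.44% and 79.7 ± 5.36%, with most of the rest in Igfbp4-004, a processed transcript with 18.5 ± 4.68% and 18.8 ± 4.09%. Per length Igfbp4-004 was on a par with Igfbp4-001, at 49.4% against 45.3% of the wild-type TPM. The exact permutation p was 0.9 or 1 for each of the 6 shares other than that of the upstream Tgm1 start.

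**Figure D3:**
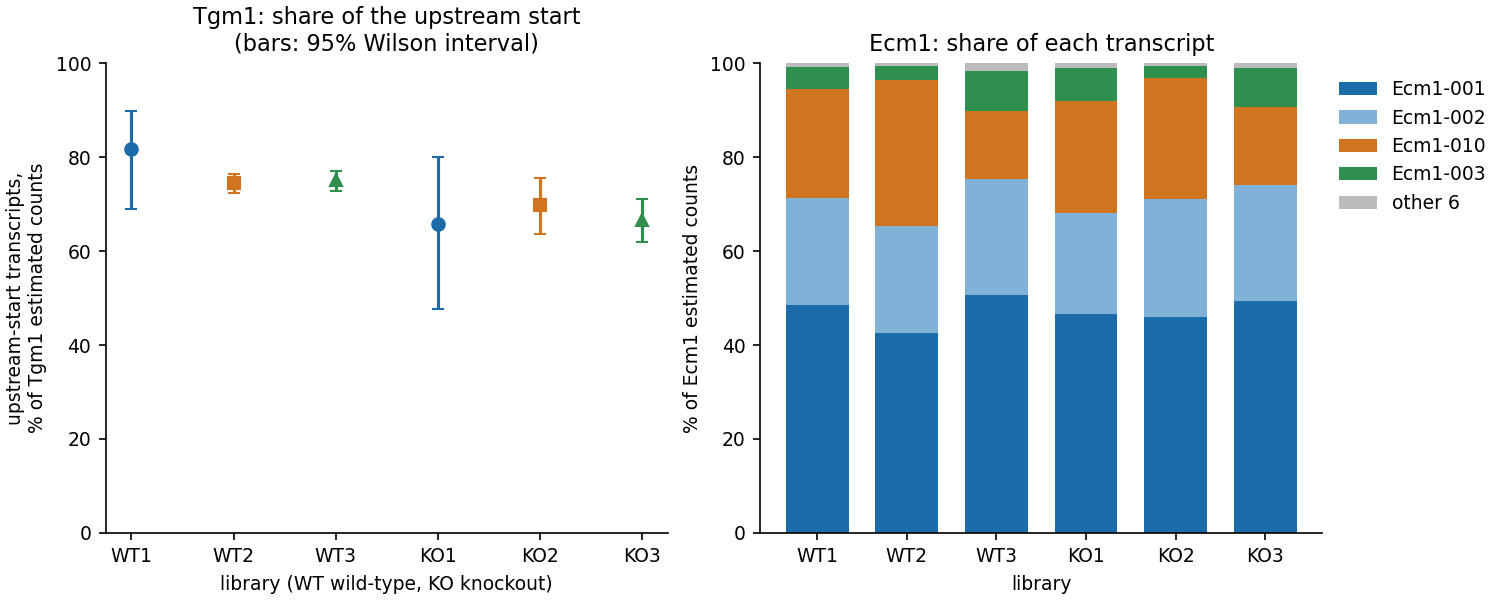
Left, percent of Tgm1 estimated counts in transcripts of the upstream start (y axis) per library (x axis), with 95% Wilson intervals; the 3 wild-type libraries are at 74.5 to 81.7% and the 3 knockout libraries at 65.7 to 69.9%. Right, percent of Ecm1 estimated counts per transcript, where Ecm1-001 is the largest part in every library.

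How the genes varied between replicate numbers was not what they were chosen for. In edgeR's additive model of genotype and number, the number passed (Benjamini-Hochberg adjusted p under 0.05) for 3 of the 6 genes, against 10.2% of all tested genes. These were Tgm2 (adjusted p 0.00858), Ecm1 (0.0174) and Tgm1 (0.0201). Timp1, Igfbp4 and Fn1 had adjusted p of 0.0574, 0.0744 and 0.111. Choosing genes for steady ratios within numbers also favours a small residual spread, so this count is not independent of the choice. Leaving out wild-type 3 or knockout 3 ended the calls of Ecm1 (0.0625 and 0.0648) and Tgm1 (0.0733 and 0.0755), and leaving out knockout 2 that of Ecm1 (0.0505), whereas Tgm2 passed with each library left out, at 0.0425 or less. Leaving out a library also brought genes past the threshold. Timp1 passed without knockout 1 (0.0375) or knockout 2 (0.0443), Igfbp4 without wild-type 1 (0.0108), and Fn1 without wild-type 1 (0.0128) or knockout 1 (0.00366). Timp1 passed as well without the filter on low counts (0.0411) and without transcripts under 300 nt (0.0403). Which of the 6 genes passed thus depended on single libraries for all but Tgm2. Tgm2 had the clearest order, with number 3 at 6.66 times number 1 in wild-type and 11.1 times in knockout. Tgm1 in number 2 was 35.0 times number 1 in wild-type and 7.85 times in knockout.

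The 5 genes that were lower in knockout were all lowest in number 1 within each genotype, and the number 1 libraries were also those with the most Cd8a. Cd4 itself was at 523, 580 and 490 CPM in wild-type and 246, 634 and 380 CPM in knockout libraries, so that knockout 1 had both the lowest Cd4 and the lowest level of each of these 5 genes. In cultures measured in bulk, fewer cells of a type and less RNA per cell cannot be told apart. CD8 T cell markers, 5 of 5 genes with Gzma as the most abundant, summed to 1674, 945 and 847 CPM in wild-type and 1209, 1135 and 1405 CPM in knockout libraries. Unlike Cd8a, this sum was highest in knockout 3 among the knockout libraries, and in number 1 it was lower in knockout than in wild-type. B cell markers were detected for 10 of 10 genes and summed to 357, 207 and 150 CPM in wild-type and 764, 463 and 335 CPM in knockout libraries. All 10 were higher in knockout by the edgeR fit without the block, and 5 were called in the paired DESeq2 fit described below. The part of these cells in the levels of the 6 genes was not tested. With both number 1 libraries left out, the edgeR log2 changes with the block were -0.96 for Ecm1, -2.47 for Tgm1, -0.75 for Tgm2, -0.92 for Timp1, -0.39 for Igfbp4 and 2.55 for Fn1. On all 6 libraries they were -1.20, -2.09, -0.93, -0.71, -0.80 and 1.87 in the same order. With both number 3 libraries left out they were -1.25, -2.11, -1.13, -0.82, -0.99 and 1.53 in the same order.

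Myeloid markers and Fn1 differed in the same direction. Myeloid markers, those of macrophages and related cells, summed to 58.8, 111 and 16.2 CPM in wild-type and to 95.6, 201 and 31.6 CPM in knockout libraries over 13 genes, and like Fn1 they were higher in the knockout within each number and lowest in wild-type 3 and highest in knockout 2. Lyz2, encoding lysozyme, was at 15.03, 58.7 and 2.03 CPM in wild-type and 16.0, 116 and 12.1 CPM in knockout libraries. Fn1 departed from Lyz2 in wild-type 2, where Fn1 was at 4.73 CPM, below wild-type 1. The macrophage marker Emr1, encoding F4/80, was at 0.818 CPM or less in every library, and C1qa at 0.102 CPM or less; 7 of the 13 passed the filter. Stromal cells are another textbook source of fibronectin. Of 10 stromal markers Pdgfra, Col3a1 and Ccl19 had 0 counts in all 6 libraries, and 3 passed the filter on low counts. The part of such cells in the Fn1 level was not tested. Platelet markers, 2 of 6 tested, went the other way, with sums of 6.92, 21.2 and 4.43 CPM in wild-type and 3.52, 14.2 and 1.70 CPM in knockout libraries, lower in the knockout within each number as the 5 other genes were. Most of this was Itga2b, the platelet integrin αIIb chain (paired DESeq2 adjusted p 0.000682), while Pf4, a defining platelet gene, was at 4.56 CPM or less and was not lower in the knockout in any number; the part of platelets was not tested.

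**Figure D4:**
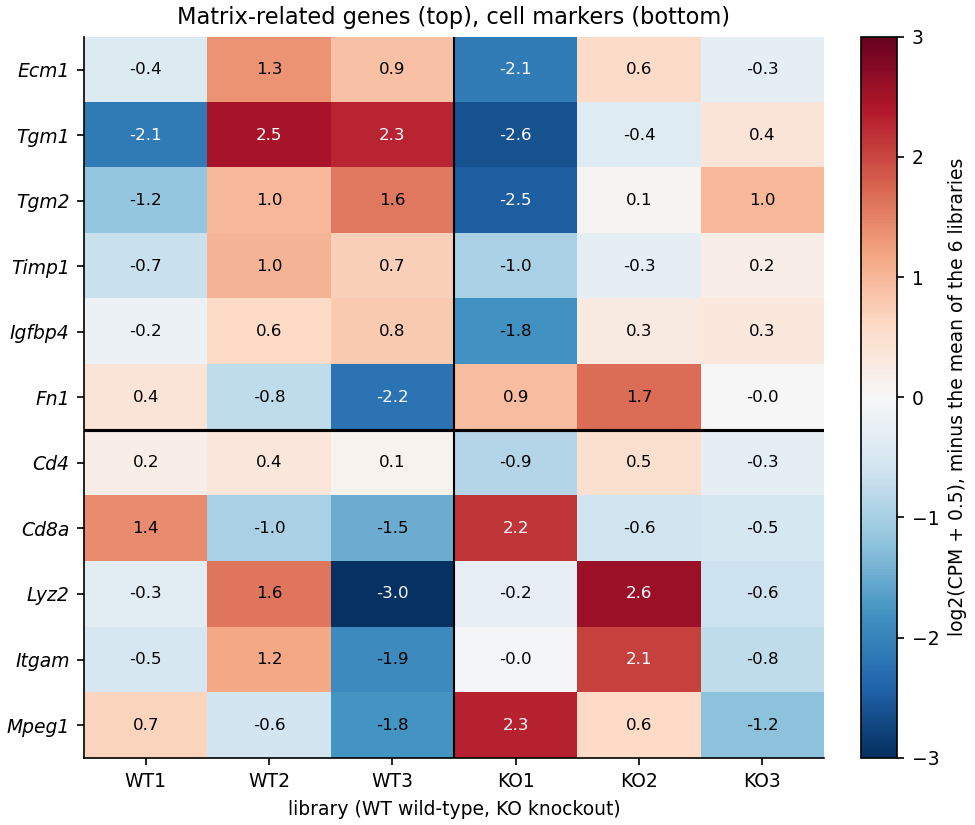
Log2(CPM + 0.5) minus the mean of the 6 libraries (color and printed value) for the 6 matrix-related genes (top) and 5 cell markers (bottom) in wild-type (WT) and knockout (KO) libraries 1 to 3. Knockout 1 has the lowest value of the 5 genes above Fn1 and of Cd4, and the highest of Cd8a and Mpeg1.

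The genes whose pattern over the 6 libraries was most like each member were found by Pearson's r of log2(CPM + 0.5) among 10252 other genes with a mean of at least 5 CPM. These are descriptions over 6 libraries that share their depth and numbers. For Ecm1 the closest was Gpld1 (r = 0.997), encoding an enzyme that cleaves glycosylphosphatidylinositol anchors, at 10.6, 31.0 and 21.7 CPM in wild-type and 4.40, 19.5 and 13.03 CPM in knockout libraries, then 9130221H12Rik and Snx2. For Tgm2 they were Endog, Tle6 and Esm1 (r = 0.998 for each); Esm1, which encodes a secreted proteoglycan, was at 1.31, 7.91 and 13.1 CPM in wild-type and 0.176, 4.81 and 7.87 CPM in knockout libraries. For Timp1 they were Kctd6 (0.985), Vamp3 and Rap1gds1, for Tgm1 Mapkapk2 (0.989), Gm21781 and Cnst, and for Igfbp4 Espn (0.994), Slc4a11 and Sord. For Fn1 they were Zbtb45 (0.978), Athl1 and Fgl2, the last a fibrinogen-like secreted protein gene, at 16.7, 12.8 and 9.92 CPM in wild-type and 25.3, 26.7 and 17.97 CPM in knockout libraries. Among the members themselves, Tgm1 and Timp1 were closest (r = 0.990), the 5 lower genes correlated at 0.82 to 0.99 with each other, and Fn1 correlated at -0.49 to -0.75 with them. These correlations include the genotype difference for which the members were chosen, so their signs are partly built in and nothing is read from them.

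The other genes of the same pathways were tested between genotypes over all 15121 genes. The gene lists were chosen with earlier results of these data known, so the p-values and counts below may not be independent of that choice. edgeR called 0% of them without the block, with 1.67% at an unadjusted p under 0.05, and 0% with the block, with 9.73% at an unadjusted p under 0.05. DESeq2 with the replicate number as a block called 381 genes, or 2.52%, of which 154 were higher (1.02%) and 227 lower (1.5%); 880 genes had no adjusted p there. In the sentences that follow, called means this paired DESeq2 fit, and none of the genes was called in edgeR on all 6 libraries, with or without the block, or in limma-voom with the block, which called 0 genes with 1642 at an unadjusted p under 0.05. The 6 described genes are all called there, in the direction for which they were chosen, and nothing is read from that.

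Few other transglutaminase genes were expressed. The table held 6 family genes besides Tgm1 and Tgm2, of which 2 passed the filter on low counts and 0 were called. Tgm5 and Tgm6 had 0 counts in every library, Tgm3 and Tgm7 stayed at 0.0451 CPM or less, and Tgm4 at 0.541 CPM or less. F13a1, the gene of coagulation factor XIII's A chain, was at 1.07, 1.67 and 0.209 CPM in wild-type and 0.880, 4.34 and 1.78 CPM in knockout libraries, with a log2 change of 1.25 (SE 0.86, edgeR adjusted p 0.9999). Tgm2 thus made up most of the family's counts in every library. The cornified envelope genes, to which Tgm1's skin substrates belong, were nearly silent: 3 of 14 passed the filter, none was called, and Cst6, the gene of this list with the smallest p in edgeR without the block, was at 0.162 to 0.313 CPM. Of 6 keratinocyte markers, Krt5, Krt14, Krt1 and Trp63 had 0 counts in every library.

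Of 8 tested genes of matrix cross-linking and collagen modification other than Tgm1 and Tgm2, 2 were lower and none higher among the called genes. P4ha1 and P4ha2 encode the catalytic chains of collagen prolyl 4-hydroxylase. P4ha1 was at 164, 383 and 414 CPM in wild-type and 125, 211 and 302 CPM in knockout libraries, a paired change of -0.58 (SE 0.13, DESeq2 adjusted p 0.00144). P4ha2 was at 16.5, 73.7 and 106 CPM and at 10.2, 35.6 and 84.5 CPM, a change of -0.70 (SE 0.17, adjusted p 0.00498). Both were lower in the knockout within every number, and both overlapped between genotypes. With both libraries of a number left out, P4ha1 was called only without number 1 (adjusted p 0.00846) and P4ha2 only without number 3 (0.0335). Without number 3 only numbers 1 and 2 remain, where genotype and the sex-linked transcripts cannot be told apart. Plod2, which encodes a lysyl hydroxylase of collagen, was lowest in number 1 and highest in number 3 in both genotypes and was not called by genotype, at 26.4, 93.2 and 180 against 29.4, 80.9 and 161 CPM (DESeq2 adjusted p 0.942).

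Of 30 tested matrix protein genes other than Ecm1 and Fn1, 1 was lower and 2 were higher among the called genes. Another 23 had an adjusted p over the threshold and 4 had none. Lama5, the laminin α5 chain of basement membranes, was at 35.9, 102 and 80.6 CPM in wild-type and 20.1, 67.4 and 40.9 CPM in knockout libraries (change -0.81, SE 0.14, DESeq2 adjusted p 2.62e-06). Tgfbi, a TGF-β-induced matrix protein gene, was at 4.13, 7.51 and 0.815 CPM and at 6.26, 20.8 and 4.09 CPM (change 1.43, SE 0.36, adjusted p 0.00540). Lum, encoding the collagen-binding proteoglycan lumican, was at 23.0, 5.30 and 10.3 CPM and at 44.2, 20.0 and 36.1 CPM (change 1.54, SE 0.23, adjusted p 4.46e-08). Tgfbi had the order of Fn1 in the knockout libraries, with knockout 2 highest, whereas Lum was highest in knockout 1. Lum was called with each number left out, Lama5 was not without number 3 (adjusted p 0.0761), and Tgfbi was called only without number 1 (0.00022). Lum is also 1 of the 3 tested stromal markers, whose sum over 10 genes was 7.35 to 26.3 CPM in wild-type and 23.0 to 46.8 CPM in knockout libraries, most of it Lum. The median log2 change of the 30 was -0.15 without the block, against 0.01 over all genes.

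**Figure D5:**
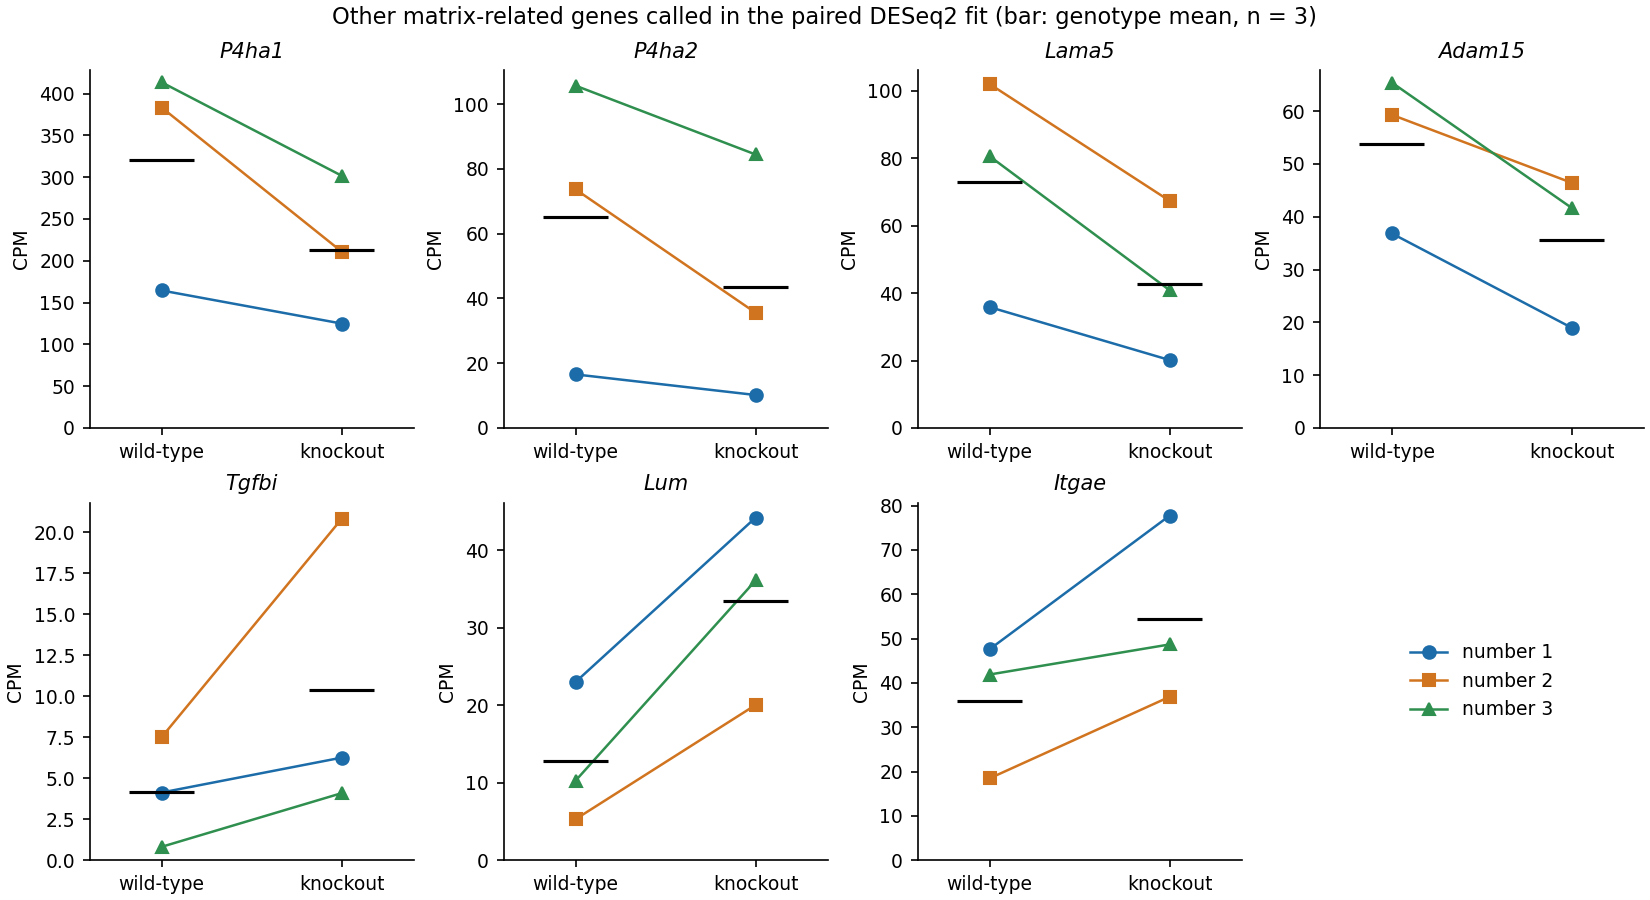
CPM (y axis, from 0) of 7 other genes of the lists that were called in the paired DESeq2 fit, in wild-type and knockout libraries (x axis); lines join libraries of the same number and bars are means of 3. P4ha1, P4ha2, Lama5 and Adam15 are lower and Tgfbi, Lum and Itgae higher in the knockout within every number.

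The next list held the metalloproteinases, their relatives and the other TIMPs. Over all tested genes 2.52% were called in the paired DESeq2 fit, so counts of 0 or 1 in lists this short say little about a family. Of 23 tested genes other than Timp1, 1 was called: Adam15, a membrane-bound disintegrin and metalloproteinase, at 36.8, 59.3 and 65.4 CPM in wild-type and 19.0, 46.4 and 41.7 CPM in knockout libraries (change -0.66, SE 0.17, DESeq2 adjusted p 0.00527). With a number left out it was called only without number 2 (0.00493). Timp2 had the highest level of the list after Timp1, at 32.3 TPM on average, and Timp4 had 0 counts in every library. Within the IGF system 0 of 6 tested genes besides Igfbp4 were called: Igf1 was at 0.0225 CPM or less, and Insr, the insulin receptor, had a log2 change of -0.29 (SE 0.30, edgeR adjusted p 0.9999). Igfbp7, the binding protein gene with the next highest level, was at 14.4 TPM against 195 TPM for Igfbp4 over the 6 libraries.

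No fibronectin receptor gene of 12 tested was called, with a median log2 change of -0.04. Itgav, the αv integrin chain, had the smallest p in edgeR without the block, with a change of 0.21 (SE 0.18, adjusted p 0.9999). In the paired DESeq2 fit Itga4, the α4 integrin chain, had the smallest p, with a change of 0.50 (SE 0.24, adjusted p 0.414); it was added after its values were seen. Itgb7 had the highest level of the list, at 128 TPM. Of 6 tested genes linked to ECM1 in T cells 0 were called. Il2rb, the IL-2 receptor β chain, was at 397, 515 and 709 CPM in wild-type and 511, 452 and 604 CPM in knockout libraries, and S1pr1, the receptor that guides T cells out of lymph nodes, at 111 to 113 and at 97.5 to 110 CPM. Of 12 TGF-β response genes 2 were called, Tgfbi and Itgae, the αE integrin chain. Itgae was at 47.6, 18.5 and 41.9 CPM in wild-type and 77.7, 36.9 and 48.7 CPM in knockout libraries (change 0.63, SE 0.18, DESeq2 adjusted p 0.0316). With a number left out, Itgae was called only without number 3 (0.0277). That fit holds only numbers 1 and 2, where genotype and the sex-linked transcripts cannot be told apart.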

How the data were processed

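The authors deposited estimated counts per transcript for 6 libraries; per the submitters' processing notes these came from Bowtie2 2.1.0 and eXpress 1.3.1 on GRCm38. For the annotation release and the program settings: not given in the sources used here. eXpress divides reads between transcripts by a model, so shares of overlapping transcripts are estimates. The deposited table also gives transcript length and GC content as a fraction. Estimated counts were summed per gene and rounded, and genes passed filterByExpr. The main test was edgeR 4.0.16 (quasi-likelihood, TMM, Benjamini-Hochberg, threshold 0.05) without a block; alternatives were edgeR, DESeq2 1.42.0 and limma 3.58.1 with the replicate number as a block, other scalings and filters, and libraries left out. Fits were tested on simulated data.

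Same-numbered libraries deviated together (r = 0.60, 0.45 and 0.64 over 15121 genes, against -0.17 to -0.47 for different numbers), so the numbers were taken as pairs, a pairing seen in the data and not stated in the labels. The members and gene lists were chosen with earlier results of these data known. Genes of each list were named if called in the paired DESeq2 fit, or as the smallest p or highest level where none was. Reads are not independent molecules, so intervals and floors cover counting error only.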

Additional observations from a re-analysis of the deposited data

How the results depend on the processing

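The 6 genes' log2 changes kept their sign in 114 of 114 alternatives. Steady signs are largely built in, since the genes were chosen for shifts within numbers in these same libraries. The changes ranged from -1.71 to -0.57 for Ecm1, -3.18 to -1.51 for Tgm1, -1.57 to -0.19 for Tgm2, -1.15 to -0.42 for Timp1, -1.08 to -0.18 for Igfbp4 and 1.07 to 2.56 for Fn1. Genes called by genotype numbered 0 in edgeR on all libraries with or without the replicate block, 0 in limma-voom with the replicate block, 13 in DESeq2 without and 381 with the replicate block, and 0 to 1 with 1 library left out, the 1 without knockout 1. Without both libraries of number 1, edgeR with the replicate block called 8. DESeq2 with the replicate block called 185, 262 and 144 without numbers 1, 2 and 3, alternatives chosen after seeing the data. Genes called by number were 1547, and 2088 without transcripts under 300 nt; leaving out 1 library gave 168 (without knockout 3) to 1582, with 324, 204 and 374 without wild-type 2, wild-type 3 and knockout 2. The cause was not tested.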

Other observations

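Of the 23 tested genes of metalloproteinases and their inhibitors other than Timp1, 7 differed between replicate numbers (edgeR adjusted p under 0.05), against 10.2% of all tested genes; of the 7, Adam15 was also called by genotype in the paired DESeq2 fit. Mmp12, the macrophage elastase gene, was at 6.20, 33.6 and 5.14 CPM in wild-type and 12.1, 31.5 and 8.32 CPM in knockout libraries, and Mmp19 at 1.87, 12.1 and 1.34 and at 2.93, 12.4 and 1.86 CPM, both highest in number 2 (edgeR adjusted p for number 0.0169 and 0.0102). Mmp9, which ECM1 is known to bind, was at 0.349, 5.16 and 1.25 CPM in wild-type and 0.0978, 8.71 and 1.52 CPM in knockout libraries (0.027). Each of these calls ended with 1 library left out: Mmp12 without wild-type 2, wild-type 3 or knockout 3 (0.0526, 0.075 and 0.0677), Mmp19 without the same libraries (0.0573, 0.052 and 0.0519), and Mmp9 without these or knockout 2 (0.0753, 0.0879, 0.09 and 0.0936). Thbs1, the matrix protein thrombospondin 1, was at 2.30, 22.1 and 1.69 and at 0.919, 46.6 and 4.09 CPM (0.0248), a call that ended without wild-type 2 (0.0894), wild-type 3 (0.073), knockout 2 (0.119) or knockout 3 (0.0726). Number 2 was also where Lyz2, a myeloid gene, was highest, at 58.7 and 116 CPM; the part of such cells was not tested.

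Plod2 had another order, lowest in number 1 and highest in number 3 in both genotypes, as Tgm2 had (edgeR adjusted p for number 0.0067, and 0.0428 or less with any 1 library left out).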
